A study of Mus musculus with 14 samples.

Results

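Kidney cortex of TRACK mice on a vitamin A deficient diet (TRACK-VAD, n = 4) was compared with kidney cortex of TRACK mice on regular chow (TRACK, n = 4), which are 8 of the 14 RNA-seq libraries of the series, chosen by their labels. TRACK mice carry the transgene GGT-HIF1A_M3 on a C57BL/6 background. In this line the promoter of gamma-glutamyl transferase drives a constitutively active form of HIF1A, the part of the hypoxia-inducible factor that oxygen normally destroys, in cells of the proximal tubule, so both groups compared carry the active factor and differ by diet. The diets, a vitamin A sufficient chow or the deficient diet, began 2 weeks after weaning and lasted 24 weeks. Non-transgenic C57BL/6 mice given the deficient diet (WT-VAD, n = 3) or chow (WT, n = 3) entered the fit and are given as a background. Each library was read as 51-base single-end reads. The labels number libraries as biological replicates and speak of 4 mice per cohort, so each was taken as 1 mouse. The labels give neither sex nor serum retinol, and a value showing how deficient the mice became was not analysed here.

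Vitamin A is carried in blood as retinol bound to RBP4, enters cells, and is oxidised by alcohol and retinaldehyde dehydrogenases to retinoic acid. Retinoic acid binds nuclear receptors of the RAR family, which sit on DNA as heterodimers with RXR and turn on target genes, among them the CYP26 enzymes that break retinoic acid down. The kidney is a large site of retinol recovery, since the proximal tubule takes up filtered RBP4 through megalin.

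The defining genes of the labelled tissue were present. Summed scaled FPKM (deposited FPKM divided by a scale factor per library) of the proximal tubule S1-S2 list ran between 6540 and 9730 in TRACK-VAD and between 10400 and 12200 in TRACK, while the skeletal muscle list summed to 1.32 to 5.9 and 1.5 to 6.57, the adrenal cortex list to 14.9 to 28.5 and 17.1 to 21, and the urothelium list to 3.6 to 28.6 and 4.58 to 24.7. The adipocyte list summed to 230 to 443 in TRACK-VAD and 187 to 1160 in TRACK. Adipoq, an adipocyte gene on that list, had 62.9 FPKM in TRACK 4 and 0 in TRACK 1, 2 and 3. In TRACK-VAD it was at most 0.334 FPKM. The part of fat in TRACK 4 in the differences was not tested. Relative depth ran between 0.778 and 1.03 for TRACK-VAD libraries and between 0.921 and 1.29 for TRACK libraries. In bulk cortex, fewer cells of a type and less RNA per cell cannot be told apart. Endogenous Hif1a measured 23.9, 21.6, 30.5 and 27.6 scaled FPKM in TRACK-VAD and 23.8, 31, 28.5 and 27.3 in TRACK, so the groups overlapped. A row for the transgene itself was not analysed here, and mouse Hif1a does not check the genotype labels.

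The TRACK-VAD libraries were unequal. TRACK-VAD 1 and 2 lay at 22.7 and 42.8 on the first principal component of the 8 libraries, which held 52.8% of the variance. TRACK-VAD 3 and 4 lay at -15.0 and -13.5 there, near the TRACK libraries (-14.5 to -1.36). The second component held 11.2% and set TRACK-VAD 3 and 4 (-14.7 and -13.3) apart from the TRACK libraries (4.13 to 9.97). TRACK-VAD 1 and 2 lay at 3.0 and -5.19 on it. TRACK-VAD 4 was sequenced in lane 6 and the other 7 libraries in lane 5. Counts below that rest on TRACK-VAD 1 and 2 are therefore given with and without them.

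Few genes differed between the diets in TRACK cortex. By limma's moderated test on log2(scaled FPKM + 1), with Benjamini-Hochberg adjustment over 12251 genes, 19 genes were called at an adjusted p of 0.05 or less, which is 0.155% of those tested. One gene, Cish, rose in TRACK-VAD (0.00816% of genes) and 18 fell (0.147%). Of the 19, 11 differed by at least 1 in size on this log2 scale (0.0898%). The added 1 FPKM shrinks differences at low levels. Aox1, Plxdc1 and Susd5, with ratios of means of 0.24, 0.271 and 0.328, are therefore not among the 11. The median log2 difference over all genes was 0.001. At an unadjusted p of 0.05 or less, 629 genes were higher (5.13%) and 653 lower (5.33%) in TRACK-VAD. In all 19 called genes the 4 TRACK-VAD values lay outside the range of the 4 TRACK values, which was so for 286 genes above (2.33%) and 305 below (2.49%) among all tested.

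**Figure D1:**
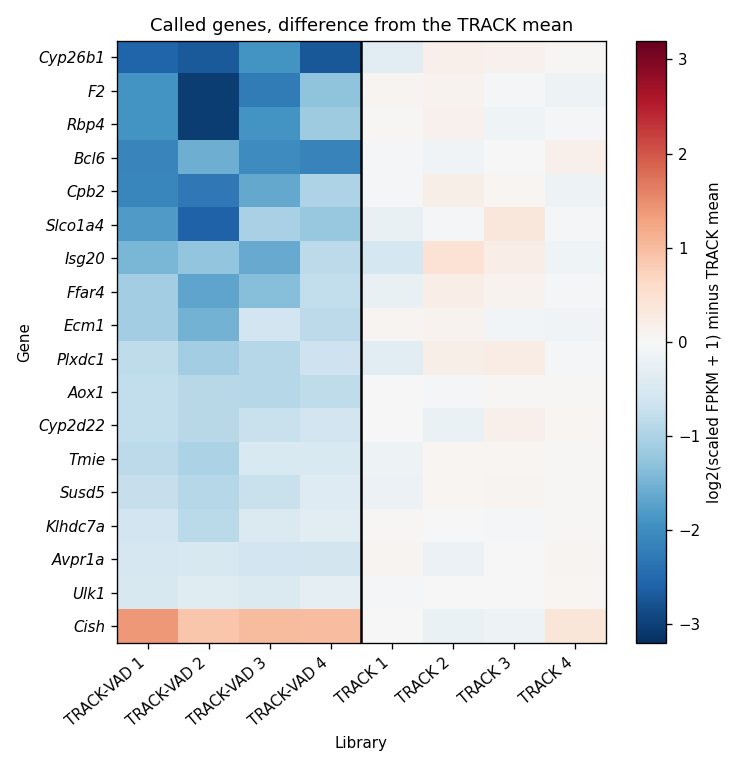
Each cell is a library's log2(scaled FPKM + 1) minus the mean of the 4 TRACK libraries, for 18 of the 19 called genes, with the 4 TRACK-VAD libraries left of the line and the 4 TRACK libraries right of it. Blue marks lower and red higher values; all 17 lower genes drawn are blue in each TRACK-VAD library, Cish alone is red, and TRACK-VAD 2 is the darkest column for F2 and Rbp4.

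The gene with the smallest adjusted p was Cyp26b1 (ENSMUSG00000063415, chr6:84571414-84593908, GRCm38), a cytochrome P450 that inactivates retinoic acid. Its level was 0.599, 0.454, 1.52 and 0.428 scaled FPKM in TRACK-VAD 1 to 4, against 6.3, 9.6, 9.45 and 8.74 in TRACK 1 to 4. Every TRACK-VAD library was low, TRACK-VAD 3 least so, and the mean fell to 0.751 ± 0.521 in TRACK-VAD, against 8.52 ± 1.53 in TRACK (SD, n = 4 each). The log2 difference was -2.47 ± 0.20 (SE, adjusted p = 0.000179); the added 1 FPKM makes this smaller than the ratio of the means, which was 0.0881. Wild-type cortex had 0.776, 0.403 and 1.36 scaled FPKM in WT-VAD and 5.35, 3.8 and 5.22 in WT, and Cyp26b1 was called there as well (-1.67, adjusted p = 0.0111).

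Rbp4 (ENSMUSG00000024990, chr19:38116620-38125321), which encodes the plasma carrier of retinol, fell as well. It measured 10.7, 4.41, 10.8 and 19.2 scaled FPKM in TRACK-VAD, against 44.8, 47.6, 39.3 and 42.3 in TRACK. The highest TRACK-VAD library was far below the lowest TRACK library. The log2 difference was -2.004 ± 0.32 (SE, adjusted p = 0.0297). In wild-type cortex the sign was the opposite, with 10.5, 9.15 and 10.1 scaled FPKM in WT-VAD and 5.91, 3.31 and 1.84 in WT (1.31, adjusted p = 0.185, not called). The interaction of diet and genotype for Rbp4 was -3.32 and missed the threshold (limma adjusted p = 0.0741). Rbp4 was no longer called without TRACK-VAD 1, without TRACK-VAD 3, or without any 1 of the 4 TRACK libraries, at adjusted p of 0.0515 to 0.124.

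The rest of the retinoid pathway gave no call. Of 12 genes listed for retinoid transport and uptake, 7 passed the level filter and Rbp4 alone was called. Ttr, whose protein carries RBP4 in plasma, had 96.4, 52.1, 174 and 280 scaled FPKM in TRACK-VAD and 51.8, 94.8, 79.3 and 90.2 in TRACK, so the groups overlapped (0.70, adjusted p = 0.528). Without TRACK-VAD 1 and 2, Ttr was called higher (1.51, adjusted p = 0.0344). Stra6, the membrane receptor for RBP4, had 5.88, 13, 2.42 and 2.09 in TRACK-VAD and 4.26, 1.38, 1.15 and 1.81 in TRACK, high in the same 2 libraries that stand apart.

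None of 22 tested genes of retinoid storage and synthesis was called, and their median was 0.02. Aldh1a1, a retinaldehyde dehydrogenase, had 49.1, 39.6, 32.6 and 41.1 scaled FPKM in TRACK-VAD and 69.1, 51.9, 56.2 and 56.2 in TRACK. The groups did not overlap, yet the adjusted p was 0.388 (-0.52). Aldh1a2, another enzyme of the same step, had 3.23, 9.99, 1.31 and 1.42 in TRACK-VAD and 1.35, 0.825, 0.979 and 0.94 in TRACK (0.996, adjusted p = 0.388). Bco1, which cleaves beta-carotene, differed by 0.32 and Adh7, a retinol-oxidising alcohol dehydrogenase, by -0.39, neither of them called (adjusted p = 0.344 and 0.424). Dhrs3, which reduces retinaldehyde back to retinol, differed by -0.18 (adjusted p = 0.493).

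Of 15 tested genes on the retinoic acid target list, Cyp26b1 was the only one called, and the list median was -0.11. Among 15 tested receptor and cofactor genes none was called and the median was -0.13. Rarb, a retinoic acid receptor and itself a classical target, had 2.74, 2.37, 2.58 and 2.88 scaled FPKM in TRACK-VAD and 3.13, 3.55, 3.36 and 2.97 in TRACK. All TRACK-VAD values lay below all TRACK values, by little, and the adjusted p was 0.388 (-0.22). Cyp26a1, the other well-known retinoic acid hydroxylase, did not pass the filter, its highest value over all 14 libraries being 0.332 FPKM. Cyp2s1, a P450 whose human form acts on retinoic acid, overlapped between the groups (-0.51, adjusted p = 0.388).

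Promoter windows from RefSeq (GRCm38.p6), 250 bases before to 50 after a gene's start, were searched on both strands for a DR5 element, the direct repeat with a spacer of 5 bases through which RAR and RXR bind. It was present in 0.323% of 32851 windows and in none of the 20 windows of called genes, Cyp26b1 among them, which says only that these letters are not in those windows. The Rarb window is shown because it holds the textbook example, with the repeat in capitals (chr14:16575427-16575726, minus strand).
Rarb: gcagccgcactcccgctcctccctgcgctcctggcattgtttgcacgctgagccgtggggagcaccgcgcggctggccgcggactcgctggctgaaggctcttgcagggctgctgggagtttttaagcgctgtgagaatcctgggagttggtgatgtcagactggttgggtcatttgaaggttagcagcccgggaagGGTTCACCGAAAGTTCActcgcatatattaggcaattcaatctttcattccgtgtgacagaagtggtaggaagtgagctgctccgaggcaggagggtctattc

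**Figure D2:**
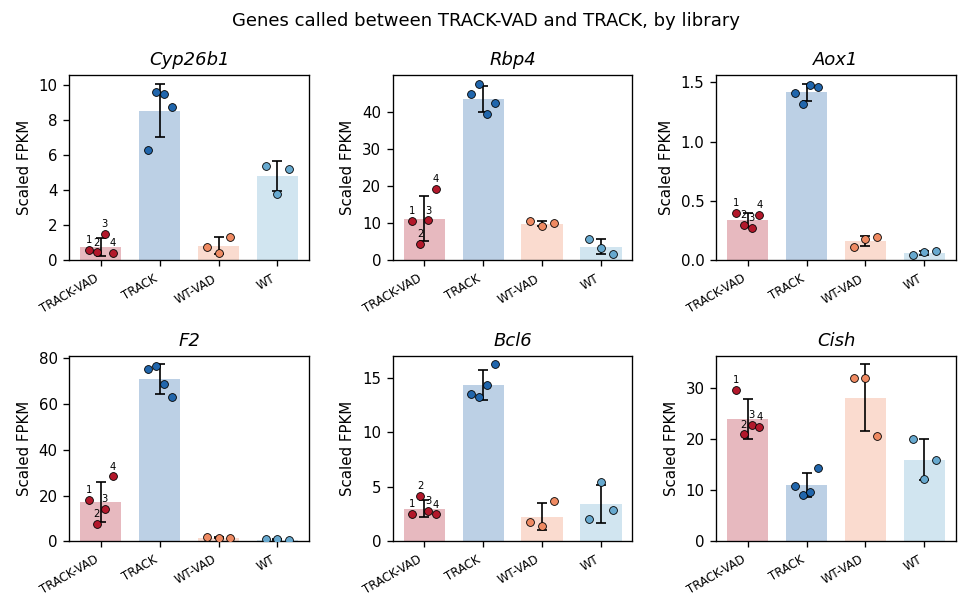
Scaled FPKM of 6 called genes in TRACK-VAD, TRACK, WT-VAD and WT cortex; points are libraries (numbered in TRACK-VAD), bars are means and error bars are SD. TRACK-VAD points lie below all TRACK points for Cyp26b1, Rbp4, Aox1, F2 and Bcl6 and above them for Cish, while WT-VAD and WT points separate widely for Cyp26b1.

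Secreted plasma proteins known from liver were among the genes that fell. F2, which encodes prothrombin (ENSMUSG00000027249, chr2:91625320-91636414), had 18.2, 7.69, 14.3 and 28.4 scaled FPKM in TRACK-VAD, against 75.5, 76.6, 69 and 62.9 in TRACK. All TRACK-VAD values were far below the lowest TRACK value (-2.12 ± 0.27 SE, adjusted p = 0.00437). In wild-type cortex F2 was low in both groups, at 1.71, 1.24 and 1.41 in WT-VAD and 1.03, 0.807 and 0.472 in WT.

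Cpb2, a carboxypeptidase that restrains fibrinolysis, had 2.41, 2, 3.67 and 6.36 scaled FPKM in TRACK-VAD and 12.9, 15.5, 14.2 and 11.9 in TRACK (-1.75 ± 0.22 SE, adjusted p = 0.00437). Among the 4 TRACK-VAD libraries, TRACK-VAD 2 was lowest and TRACK-VAD 4 highest for F2, Rbp4 and Cpb2. Of 27 tested genes on the liver-type plasma protein list, F2 and Rbp4 were called lower and none higher, with a median of -0.25. Without TRACK-VAD 1 and 2 the list median was 0.17, F2 remained called lower (-1.76, adjusted p = 0.00648), and Ttr was called higher.

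A pair of apolipoprotein genes of the same kind missed the threshold. Apoa4 had 40.4, 22.8, 82.3 and 133 scaled FPKM in TRACK-VAD and 194, 219, 187 and 224 in TRACK, without overlap (-1.84, adjusted p = 0.129). Apoc3 had 390, 270, 805 and 1190 in TRACK-VAD and 1220, 1210, 1120 and 1270 in TRACK, with overlap through TRACK-VAD 4 (-1.10, adjusted p = 0.3). Without TRACK-VAD 4 both were called lower, Apoa4 at -2.25 (adjusted p = 0.00944) and Apoc3 at -1.45 (adjusted p = 0.0411). Neither was called without TRACK-VAD 1 and 2.

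Bcl6 (ENSMUSG00000022508, chr16:23965052-23988852), a transcriptional repressor, fell in TRACK-VAD. It measured 2.52, 4.19, 2.81 and 2.48 scaled FPKM in TRACK-VAD, against 13.5, 13.2, 14.3 and 16.2 in TRACK. The TRACK-VAD values lay within the range over WT-VAD and WT libraries, which was 1.36 to 5.4. The log2 difference was -1.95 ± 0.24 (SE, adjusted p = 0.00437).

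Cish (ENSMUSG00000032578, chr9:107296026-107302784), a cytokine-induced inhibitor of STAT5 signalling, was the 1 gene called higher. It had 29.6, 20.9, 22.7 and 22.3 scaled FPKM in TRACK-VAD, against 10.7, 9.13, 9.56 and 14.3 in TRACK. Each TRACK-VAD library was above every TRACK library (1.07 ± 0.18 SE, adjusted p = 0.0408). WT-VAD held 31.8, 31.8 and 20.6 and WT held 20, 12.1 and 15.8 (0.78, adjusted p = 0.16, not called). The Cish call was lost without any 1 of TRACK-VAD 1, 2 or 3 or of TRACK 1, 2 or 3, at adjusted p of 0.0509 to 0.171.

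In liver, growth hormone acting through STAT5 raises Cish and lowers Bcl6, which is background and was not measured here. A list of 13 genes of that axis was written after these values were seen and supports nothing; beside Bcl6 and Cish, none of its 11 tested members was called. Socs2, another STAT5-induced inhibitor, had 15.2, 13.3, 7.49 and 6.76 scaled FPKM in TRACK-VAD and 8.25, 7.43, 10.4 and 6.38 in TRACK (0.30, adjusted p = 0.659). Igf1 had 3.03, 1.73, 4.19 and 2.79 in TRACK-VAD and 2.33, 4.22, 3.74 and 7.77 in TRACK (-0.44, adjusted p = 0.56). The 2 groups overlapped for both genes.

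The Cish and Bcl6 windows are shown because these 2 genes moved in opposite directions and both hold the STAT-type motif TTCNNNGAA, which reads the same on both strands and is in capitals. It occurs 2 times in the Cish window (chr9:107296409-107296708, plus strand) and 3 times in the Bcl6 window of the downstream start (chr16:23981234-23981533, minus strand).
Cish: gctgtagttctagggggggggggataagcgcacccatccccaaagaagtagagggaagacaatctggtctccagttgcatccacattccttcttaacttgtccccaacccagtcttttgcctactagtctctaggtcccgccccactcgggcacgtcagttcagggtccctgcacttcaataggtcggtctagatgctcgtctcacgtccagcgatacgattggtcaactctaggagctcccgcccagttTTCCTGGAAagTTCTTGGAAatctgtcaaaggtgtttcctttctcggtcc
Bcl6: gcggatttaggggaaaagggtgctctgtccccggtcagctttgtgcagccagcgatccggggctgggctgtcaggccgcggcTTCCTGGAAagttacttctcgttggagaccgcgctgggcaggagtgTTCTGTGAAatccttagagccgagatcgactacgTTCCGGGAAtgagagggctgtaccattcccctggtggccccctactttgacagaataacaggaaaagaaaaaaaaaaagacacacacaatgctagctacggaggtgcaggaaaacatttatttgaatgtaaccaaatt
The motif was present in 8.3% of all 32851 windows and in 6.85% of the 12180 windows of tested genes. Of the 20 windows of called genes, 4 held it. They belong to 3 of the 16 called genes with a window, namely Cish, Bcl6 and Isg20. A match is a description of the letters, not of binding.

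Aox1 (ENSMUSG00000063558, chr1:58029931-58106413), an aldehyde oxidase that needs the molybdenum cofactor, had the tightest separation. It measured 0.4, 0.3, 0.274 and 0.385 scaled FPKM in TRACK-VAD, against 1.41, 1.32, 1.48 and 1.46 in TRACK. The log2 difference on the scale with 1 FPKM added was -0.85 ± 0.08 (SE, adjusted p = 0.000325), and the ratio of means was 0.24. WT-VAD had 0.116, 0.179 and 0.194 and WT had 0.0419, 0.0701 and 0.0781, all at a low level. It was the single gene of 12251 called for the interaction of diet and genotype (0.00816%), at -0.98 ± 0.12 (SE, adjusted p = 0.0179); at an unadjusted p of 0.05 or less, 992 genes (8.1%) were. Aox1 reached the filter of 1 FPKM in 3 libraries through the TRACK group alone, so its entry into the test already required a high level there. The WT-VAD libraries all lie in lane 6 and the WT libraries in lane 5, so in wild type diet and lane cannot be told apart. With lane as a covariate the interaction of Aox1 was not called (-0.93, adjusted p = 0.592), nor was it without TRACK-VAD 3 (adjusted p = 0.0629) or without TRACK 1, 2 or 4 (0.0594 to 0.078).

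The other called genes span membrane receptors, transporters and enzymes. Ffar4, a receptor for long-chain fatty acids, fell to 1.74 ± 0.714 scaled FPKM in TRACK-VAD, against 5.34 ± 0.867 in TRACK (-1.24, adjusted p = 0.00841). Cyp2d22, a P450 of the drug-metabolising kind, fell to 19.3 ± 1.63, against 33.2 ± 3.46 in TRACK (-0.75, adjusted p = 0.00437). Ecm1, an extracellular matrix protein gene, fell to 38.3 ± 10.2, against 76.9 ± 6.4 in TRACK (-1.02, adjusted p = 0.0168).

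Slco1a4, an organic anion uptake transporter, had 1.15, 0.26, 2.72 and 2.25 scaled FPKM in TRACK-VAD and 5.42, 6.34, 8.71 and 6.27 in TRACK (-1.67, adjusted p = 0.0474). Isg20, an interferon-induced RNA exonuclease, fell by 1.29 on the log2 scale (adjusted p = 0.0452). Its direction was the opposite of all 25 tested genes on the interferon list, none of them called. Avpr1a, the V1a vasopressin receptor, had 2.64, 2.72, 2.48 and 2.54 in TRACK-VAD and 4.62, 3.65, 4.36 and 4.65 in TRACK (-0.56, adjusted p = 0.0297). Ulk1, the kinase that starts autophagy, had 28.8, 31.4, 29.4 and 32.9 in TRACK-VAD and 40.1, 40.7, 41.3 and 42.8 in TRACK (-0.42, adjusted p = 0.0325). The change in Ulk1 was small, and the spread within each group smaller still. Plxdc1 fell by 0.87, Tmie, a protein of the hair-cell mechanotransduction complex, by 0.71, Susd5 by 0.70 and Klhdc7a by 0.58 on the log2 scale, at adjusted p of 0.0176 to 0.0474. Like Aox1, Plxdc1 and Susd5 passed the level filter through TRACK alone, as did 276 of all genes tested, and their calls carry that selection.

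When each of the 8 libraries was left out in turn, 8 of the 19 genes remained called throughout. Among them were Cyp26b1, Aox1, F2, Cpb2, Cyp2d22, Bcl6 and Ffar4, whose highest adjusted p was 0.0473. The other 11 were lost in at least 3 of these 8 fits, at adjusted p up to 0.208. All these fits also take their spread from the wild-type libraries. With the TRACK-VAD and TRACK libraries alone, 3 genes were called, namely Cyp26b1, Aox1 and Bcl6. F2, Cpb2, Cyp2d22 and Ffar4 were not called there. Without TRACK-VAD 1, 8 of the 19 remained called; the number was 14 without TRACK-VAD 2, 12 without TRACK-VAD 3, 19 without TRACK-VAD 4, 11 without TRACK 1, 9 without TRACK 2, 9 without TRACK 3 and 10 without TRACK 4. Without TRACK-VAD 1 and 2 together, 17 genes were called (0.139%) and 9 of the 19 were among them: the same 8 and Ecm1. Within lane 5, that is without TRACK-VAD 4, 55 genes were called (0.449%), 4 higher and 51 lower, among them all 19. TRACK-VAD 1 and 2 remain in that fit. Among genes called there but not without TRACK-VAD 1 and 2 were Apoa4, Apoc3, Plod2, Loxl2, Slc16a1, Igfbp2, 2610528A11Rik, Ifit3, Bcl2a1b and Slc50a1.

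Genes just outside the threshold included 2610528A11Rik, with 84.5, 54.1, 69.2 and 116 scaled FPKM in TRACK-VAD and 134, 180, 179 and 155 in TRACK (-1.04, adjusted p = 0.0576). Plod2, a lysyl hydroxylase of collagen, had 28, 24.8, 30.3 and 43.8 in TRACK-VAD and 44.2, 62.6, 59.3 and 56.1 in TRACK (-0.81, adjusted p = 0.0617). Igfbp2, whose secreted protein binds insulin-like growth factors, had 42.8, 15.1, 37.3 and 64.7 in TRACK-VAD and 85.8, 144, 129 and 149 in TRACK (-1.78, adjusted p = 0.0691). The groups did not overlap for any of these 3 genes, though the gap was small for Plod2 (43.8 in TRACK-VAD 4 against 44.2 in TRACK 1). All 3 were called lower within lane 5 (limma adjusted p of 0.00388 to 0.0121), a fit that keeps TRACK-VAD 1 and 2. None of the 3 was called without TRACK-VAD 1 and 2. Igfbp2 was also called without TRACK-VAD 2 (adjusted p = 0.0484) and Plod2 without TRACK 1 (adjusted p = 0.0471).

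The diet difference of these genes in wild-type cortex was mixed in sign. Of the 19 called genes, 9 had the same sign between WT-VAD and WT, and 2, Cyp26b1 and Avpr1a, were called there with the same sign. These 2 are 10.5% of the 19 and 3.17% of the 63 genes called between WT-VAD and WT (0.514%), where diet is confounded with lane. Avpr1a fell to 2.02, 2.15 and 2.37 scaled FPKM in WT-VAD, against 5.4, 5.47 and 4.25 in WT (-0.92, adjusted p = 0.00293). Aox1, Ffar4, Plxdc1 and Susd5 were under 0.32 scaled FPKM in all 6 wild-type libraries, a level at which a further decrease is not detectable. F2 and Cpb2 reached at most 1.71 and 1.06 there, which leaves little room for a decrease. Apart from Aox1, no difference between genotypes in the diet effect was called.

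**Figure D3:**
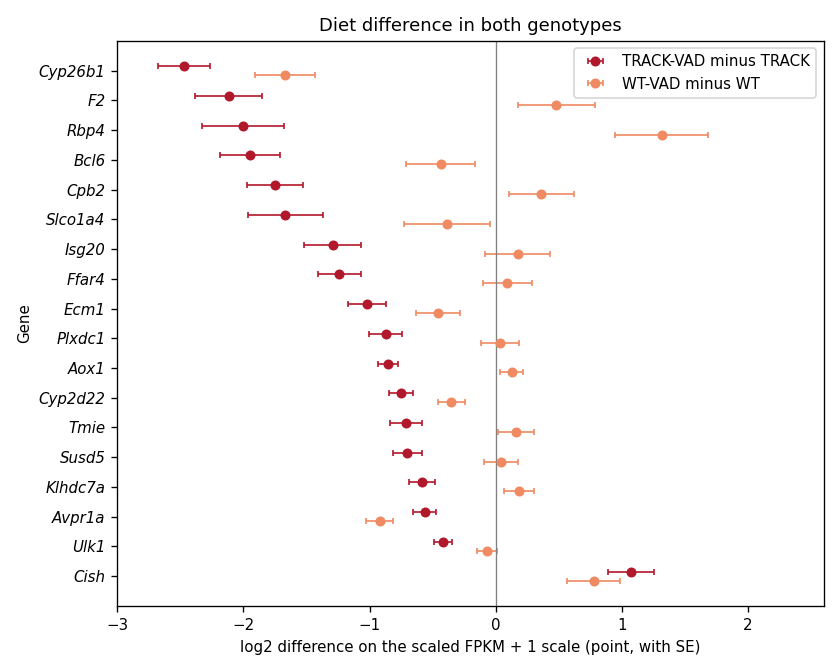
Log2 difference by diet with its SE for 18 of the 19 called genes, TRACK-VAD minus TRACK in dark red and WT-VAD minus WT in orange, on the scale with 1 FPKM added. Cyp26b1 and Avpr1a are negative in both genotypes with both called, while Rbp4, F2 and Cpb2 are negative in TRACK and positive, uncalled, in wild type. F2 and Cpb2 reached at most 1.71 and 1.06 scaled FPKM in wild type, which leaves little room for a decrease.

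Genes called by diet in wild type give the converse view. Npas2, a clock transcription factor, had 1.32, 1.49, 1.22 and 1.34 scaled FPKM in TRACK-VAD and 2.51, 2.3, 3.94 and 2.47 in TRACK. The groups did not overlap, but the difference was not called (-0.68, adjusted p = 0.105), against -1.37 between WT-VAD and WT (adjusted p = 0.00365). Dbp, a clock output factor, had 40.3, 23.8, 41.8 and 46.4 in TRACK-VAD and 16.3, 24.7, 18.8 and 27.6 in TRACK (0.76, adjusted p = 0.292), against 2.29 in wild type (adjusted p = 0.00293). The interaction was not called for either gene (adjusted p = 0.46 and 0.297). Of 20 tested clock genes, none was called between TRACK-VAD and TRACK (0.155% of all genes) and 6 between WT-VAD and WT (0.514% of all genes); the interaction was called for none of the 20, so a difference between the genotypes is not shown. In TRACK, 3 clock genes were higher (5.13% of all genes) and 2 lower (5.33%) at an unadjusted p of 0.05 or less. Without TRACK-VAD 1 and 2, 5 were higher (5.71% of all genes) and 2 lower (5.07%).

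Genes of calcium handling and lactate transport were also called in wild type. Calb1, a calcium-binding protein of the distal tubule, had 67, 33, 80.5 and 69.6 scaled FPKM in TRACK-VAD and 148, 106, 119 and 101 in TRACK (-0.97, adjusted p = 0.156), and was called in wild type (-1.55, adjusted p = 0.0173). S100g, which encodes another such protein, had 1560, 1340, 852 and 629 in TRACK-VAD and 1470, 1490, 1760 and 1500 in TRACK, low in TRACK-VAD 3 and 4 alone. It was not called (-0.59, adjusted p = 0.388) unless TRACK-VAD 1 and 2 were left out (-1.08, adjusted p = 0.00558), and it was called in wild type (-1.37, adjusted p = 0.0281). Slc16a1, a lactate and pyruvate transporter, had 27.3, 31.1, 28.6 and 35.3 in TRACK-VAD and 42, 43.4, 46.9 and 48.8 in TRACK, without overlap (-0.56, adjusted p = 0.105; within lane 5 -0.62, adjusted p = 0.0423), and was called in wild type (-1.38, adjusted p = 0.00113). None of the interactions of these 3 genes was called (adjusted p = 0.664, 0.574 and 0.296).

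Targets of HIF, whose active subunit both groups carry, gave no call. Of 29 tested genes on the list of HIF targets other than glycolysis, none was called, 16 were lower at an unadjusted p of 0.05 or less (5.33% of all genes) and none higher, and the median was -0.26. Without TRACK-VAD 1 and 2 it was 9 lower (5.07% of all genes), with a median of -0.22. The list summed to 2480, 2400, 2820 and 2960 scaled FPKM in TRACK-VAD and 3250, 3280, 3320 and 3590 in TRACK. In wild type it summed to 2110 to 2430 in WT-VAD and 3680 to 4050 in WT.

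Ndrg1, a stress-induced gene that makes up much of that sum, had 1390, 1280, 1770 and 1760 scaled FPKM in TRACK-VAD and 2050, 1870, 1910 and 2230 in TRACK (-0.39, adjusted p = 0.298). It was called lower in wild type (-0.99, adjusted p = 0.0108), while the interaction was not called (0.60, adjusted p = 0.437). Ddit4, an inhibitor of mTORC1, had 22.6, 26.9, 27.7 and 26.3 in TRACK-VAD and 32.6, 43.5, 54.3 and 36.4 in TRACK (-0.65, adjusted p = 0.159). For Ndrg1 and Ddit4 the TRACK-VAD and TRACK groups did not overlap. Loxl2, a collagen cross-linking enzyme, had 1.58, 1.73, 1.7 and 2.62 in TRACK-VAD and 2.82, 3.17, 3.32 and 3.55 in TRACK (-0.55, adjusted p = 0.0844; within lane 5 -0.66, adjusted p = 0.00823).

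Ndufa4l2, a mitochondrial HIF target, had 71.6, 68.8, 82.7 and 118 scaled FPKM in TRACK-VAD and 116, 137, 127 and 129 in TRACK, overlapping through TRACK-VAD 4 (-0.60, adjusted p = 0.292). Slc16a3, the lactate exporter, had 18.7, 16.3, 13.6 and 22 in TRACK-VAD and 24.8, 32.4, 24.7 and 24.9 in TRACK (-0.58, adjusted p = 0.249). None of 20 tested glycolysis genes was called. At an unadjusted p of 0.05 or less, 4 were lower (5.33% of all genes) and none higher, with a median of -0.21. Without TRACK-VAD 1 and 2, 3 were lower (5.07% of all genes), with a median of -0.07. Within lane 5, a fit that keeps TRACK-VAD 1 and 2, 13 were lower, against 1081 of all 12251 genes, with a median of -0.30.

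On the higher side, the 11 uncalled genes with the smallest p among those whose groups did not overlap had adjusted p of 0.129 to 0.163. Cd86, a co-stimulatory receptor of antigen-presenting cells, led them with 2.02, 4.11, 1.99 and 1.99 scaled FPKM in TRACK-VAD and 1.35, 0.851, 0.854 and 1.16 in TRACK (0.75). Bcl2a1b, an anti-apoptotic gene of blood cells with near-identical copies that may share its reads, had 1.91, 2.61, 1.05 and 0.89 in TRACK-VAD and 0.671, 0.358, 0.297 and 0.381 in TRACK (0.83). Cd300ld and Scimp, both genes of immune cells, differed by 0.68 and 0.61. The remaining 7 were genes of general cell functions: Xrcc4, a DNA repair factor (0.62), Nat14 (0.44), Stard3nl (0.41), Slc50a1, a sugar transporter (0.34), Fundc2 (0.32), Ipmk, an inositol phosphate kinase (0.29), and Vbp1, a prefoldin subunit (0.24). Within lane 5, Bcl2a1b (0.97, adjusted p = 0.0341) and Slc50a1 (0.41, adjusted p = 0.0209) were called.

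Interferon, MHC class II and macrophage gene lists had medians above 0 in TRACK-VAD without any call. Of 25 tested interferon response genes, 17 were higher at an unadjusted p of 0.05 or less (5.13% of all genes), with a median of 0.51; without TRACK-VAD 1 and 2, 3 were (5.71% of all genes), with a median of 0.23. Of 12 tested MHC class II genes 8 were higher by that rule, median 0.59, and 5 without those libraries, median 0.28. Of 16 tested genes of macrophages and dendritic cells 9 were higher, median 0.53, and 6 without those libraries, median 0.22. No member of the 3 lists passed the adjusted threshold. Other immune lists differed in sign or changed it. B and plasma cell genes (7 tested) had a median of -0.17, and -0.15 without TRACK-VAD 1 and 2. The median of 4 neutrophil genes was 0.54 and that of 6 T and NK cell genes 0.19, against -0.17 and -0.21 without those libraries, and none was called.

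Cd74, the MHC class II invariant chain, had 291, 786, 330 and 337 scaled FPKM in TRACK-VAD and 208, 253, 283 and 231 in TRACK (0.72, adjusted p = 0.365). H2-Aa, an MHC class II chain, had 173, 417, 174 and 178 in TRACK-VAD and 122, 139, 155 and 125 in TRACK (0.68, adjusted p = 0.341). Cx3cr1, the fractalkine receptor of resident macrophages, had 3.59, 6.44, 3.09 and 3.48 in TRACK-VAD and 2.68, 2, 2.25 and 2.01 in TRACK (0.63, adjusted p = 0.182). All 4 TRACK-VAD libraries were above all 4 TRACK libraries for these 3 genes, with TRACK-VAD 2 far above the rest.

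Fcer1g, a signalling chain of myeloid receptors, had 23.2, 49.3, 16.4 and 18.2 scaled FPKM in TRACK-VAD and 14.2, 12.6, 12.3 and 13.5 in TRACK (0.83, adjusted p = 0.292). Oasl2, an interferon-induced gene, had 9.11, 11.5, 5.62 and 6.55 in TRACK-VAD and 4.12, 4.63, 5.41 and 3.98 in TRACK (0.69, adjusted p = 0.208). Ifit3 of the same class overlapped, with 8.88, 7.42, 5.91 and 4.3 in TRACK-VAD and 3.76, 4.06, 4.4 and 3.24 in TRACK (0.62, adjusted p = 0.226; within lane 5 0.78, adjusted p = 0.0247). The summed macrophage and dendritic cell list was 189, 431, 168 and 180 in TRACK-VAD and 147, 134, 153 and 158 in TRACK. Its part in the levels of the immune genes was not tested.

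Several injury genes were high in 2 of the 4 TRACK-VAD mice. Havcr1, the kidney injury molecule of the proximal tubule, had 142, 303, 18.1 and 46 scaled FPKM in TRACK-VAD and 50.4, 42.6, 16.7 and 30.2 in TRACK (1.24, adjusted p = 0.513). Spp1, which encodes osteopontin, had 1640, 7860, 520 and 434 in TRACK-VAD and 768, 544, 608 and 523 in TRACK (1.11, adjusted p = 0.554). Lcn2, the injury marker lipocalin-2, had 21.1, 83.9, 4.74 and 5.13 in TRACK-VAD and 11.7, 8.02, 7.4 and 5.74 in TRACK (0.84, adjusted p = 0.646). For these 3 genes TRACK-VAD 1 and 2 were above every TRACK library while TRACK-VAD 3 and 4 were not high, and without TRACK-VAD 1 and 2 the differences were -0.15, -0.34 and -0.60.

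Of 20 tested injury genes 6 were higher (5.13% of all genes) and 1 lower (5.33%) at an unadjusted p of 0.05 or less, with a median of 0.38. Without TRACK-VAD 1 and 2, 1 was higher (5.71% of all genes) and 5 lower (5.07%), with a median of -0.12. Cdkn1a, the cell cycle inhibitor p21, had 28.9, 48.7, 17 and 21.2 scaled FPKM in TRACK-VAD and 39.3, 39, 46.7 and 36.5 in TRACK. The groups overlapped (-0.57, adjusted p = 0.407), and it was called lower without TRACK-VAD 1 and 2 (-1.04, adjusted p = 0.00558), where 0.139% of genes were called. It was also called lower without TRACK-VAD 2 alone (-0.85, adjusted p = 0.0484) and with library weights (-0.89, adjusted p = 0.0303). The same libraries held more haemoglobin RNA. The erythroid list summed to 1050, 1230, 330 and 434 scaled FPKM in TRACK-VAD and 649, 277, 282 and 318 in TRACK, and Hbb-bs, whose reads may be divided with a near-identical copy, had 563, 685, 167 and 220 in TRACK-VAD and 333, 130, 136 and 162 in TRACK. The part of blood content, injury or relative depth (0.778 and 0.879 in TRACK-VAD 1 and 2) in the other differences was not tested.

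**Figure D4:**
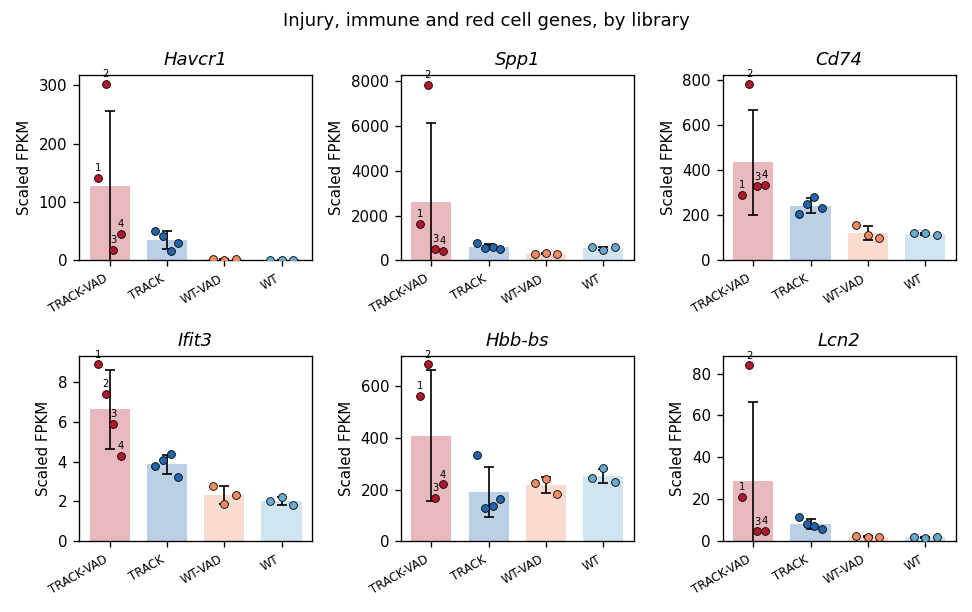
Scaled FPKM of 3 injury genes, 2 immune genes and a haemoglobin gene in TRACK-VAD, TRACK, WT-VAD and WT cortex; points are libraries (numbered in TRACK-VAD), bars are means and error bars are SD, with the part under 0 not drawn. TRACK-VAD 1 and 2 stand above the other libraries for Havcr1, Spp1, Lcn2 and Hbb-bs, and TRACK-VAD 2 alone does for Cd74.

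Tubule genes were lowest in the same 2 libraries. The proximal tubule S1-S2 list summed to 7850, 6540, 9580 and 9730 scaled FPKM in TRACK-VAD and 12200, 10900, 10400 and 11900 in TRACK. None of its 12 tested genes was called, and the median was -0.33 with all libraries and 0.14 without TRACK-VAD 1 and 2. The S3 list summed to 2290, 1480, 3450 and 4310 in TRACK-VAD and 2550, 3100, 2810 and 2920 in TRACK, with medians of -0.28 and 0.43 in the same order. The sign of both medians changed with TRACK-VAD 1 and 2 left out, although all 4 TRACK-VAD sums of the S1-S2 list lay below those of TRACK.

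Gluconeogenesis genes, which the proximal tubule expresses, had a median of -0.36 over 14 tested genes and 0.002 without TRACK-VAD 1 and 2, and none was called. G6pc, which releases free glucose, had 108, 102, 226 and 248 scaled FPKM in TRACK-VAD and 350, 270, 285 and 290 in TRACK (-0.91, adjusted p = 0.292). The groups did not overlap.

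Distal segments gave no call either. Of 14 tested intercalated cell genes 9 were lower at an unadjusted p of 0.05 or less (5.33% of all genes) and none higher, with a median of -0.40, and 6 were lower without TRACK-VAD 1 and 2 (5.07% of all genes), median -0.19. Foxi1, the factor that specifies these acid-base cells, had 13, 10.7, 14 and 12.3 scaled FPKM in TRACK-VAD and 18.7, 15.8, 16.1 and 19.7 in TRACK (-0.46, adjusted p = 0.293). Of 11 tested principal cell genes 5 were lower by the same rule, median -0.41, and 2 without those libraries, median -0.08, against the same shares of all genes. Scnn1b, a subunit of the epithelial sodium channel, had 18.1, 15.3, 17.9 and 19.8 in TRACK-VAD and 22.6, 22.9, 24.2 and 23.1 in TRACK (-0.37, adjusted p = 0.159). Ren1, the renin gene of the juxtaglomerular cells, had 294, 240, 126 and 182 in TRACK-VAD and 143, 93.6, 90.6 and 81.2 in TRACK, overlapping through TRACK-VAD 3 and TRACK 1 (1.003, adjusted p = 0.159; 1.22 without TRACK-VAD 3, adjusted p = 0.0466).

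**Figure D5:**
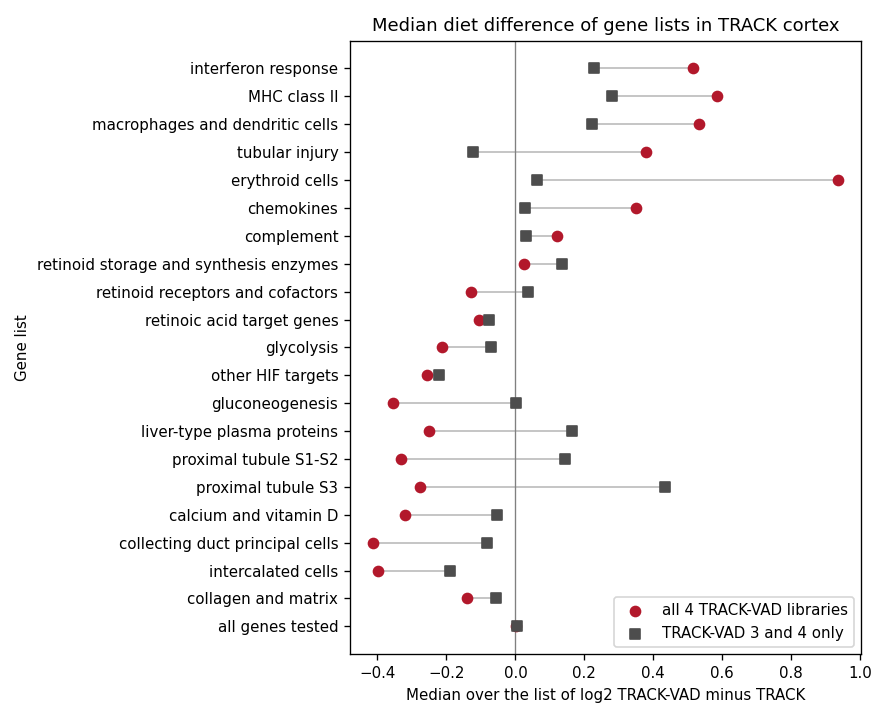
Median log2 difference, TRACK-VAD minus TRACK, over the tested genes of 20 lists and over all genes tested; red circles use all 4 TRACK-VAD libraries and grey squares TRACK-VAD 3 and 4. The interferon, MHC class II, macrophage, chemokine, complement, erythroid and retinoid storage medians stay above 0 in both. The HIF target, glycolysis, retinoic acid target, calcium, principal cell, intercalated cell and collagen medians stay below 0 in both. The tubular injury, plasma protein, retinoid receptor, gluconeogenesis and proximal tubule medians change sign.

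Mitochondrial lists gave no call. None of 68 tested genes of nuclear-encoded respiratory chain subunits was called or had an unadjusted p of 0.05 or less, and their median was 0.02. None of 24 tested TCA cycle genes, 31 of fatty acid oxidation, 15 of mitochondrial chaperones and proteases and 26 of the integrated stress response was called, with medians of -0.10, 0.02, -0.04 and -0.06. Without TRACK-VAD 1 and 2 the medians were 0.07 for the TCA cycle, 0.03 for fatty acid oxidation, 0.05 for the chaperones and proteases and -0.31 for the integrated stress response. In the integrated stress response 4 genes were lower at an unadjusted p of 0.05 or less with all libraries (5.33% of all genes) and 8 without TRACK-VAD 1 and 2 (5.07%), none of them called.

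The authors' deposited table for the same contrast, made from counts, called more genes. The authors' deposited table lists 210 genes at an adjusted p of 0.05 or less among 15516 with a value (1.35%), 73 higher (0.47%) and 137 lower (0.883%) in TRACK-VAD. All 19 genes called by limma are among them with the same sign. Of the 210, 163 were tested here, all 163 with the same sign and 158 at an unadjusted p of 0.05 or less. The authors' deposited table gives -2.36 for Cyp26b1, -1.97 for Aox1, -1.56 for Rbp4 and 0.94 for Cish on the log2 scale. Its calls also hold immunoglobulin genes, which were not in the table of protein-coding genes tested here: 18 lower and 1 higher, led in the authors' deposited table by Ighv13-2 (-2.03, adjusted p = 1.85e-07). The authors' deposited table also calls 23 of the genes described above as uncalled, 13 higher and 10 lower, all with the sign found here. Those higher in the authors' deposited table include Ren1 (0.91, adjusted p = 0.00527), Aldh1a2 (1.32, adjusted p = 0.00599), Cx3cr1 (0.78, adjusted p = 0.00855), Cd86 (0.88, adjusted p = 0.0185) and Oasl2 (0.68, adjusted p = 0.0304). Those lower in the authors' deposited table include Plod2 (-0.79, adjusted p = 0.000769), Ddit4 (-0.65, adjusted p = 0.00443), Igfbp2 (-1.23, adjusted p = 0.0145) and Apoa4 (-1.18, adjusted p = 0.016).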

How the data were processed

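Members, gene lists and named genes were chosen with earlier results of these data known. The authors deposited FPKM per protein-coding gene (22053 rows, 22007 gene IDs); 6 columns of per-sample values outside the labelled libraries were not used. The authors' deposited comparison tables give, per the file headers, a mean normalized count signal, log2 fold changes with their errors, and p-values. DESeq 1.32 and mm9 are named in the submitters' processing notes, but 99.9% of the table's loci whose IDs matched GENCODE vM21 overlap the same gene on GRCm38, the build used here. The sources used here name no aligner or strand setting; reads of genes that overlap or have near-identical copies may have been split between them.

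Genes with at least 1 FPKM in 3 or more of 14 libraries were kept, and 17 with a 0 beside high values in their group were left out. FPKM were scaled between libraries by trimmed means of log ratios, because Gpx3 made up 62.8% to 71.2% of summed FPKM. The main test was limma 3.58.1 (R 4.3.3; moderated, with trend) on log2(scaled FPKM + 1), with the 4 group means and all 14 libraries sharing one spread; tests were two-sided. Named genes were those called, the uncalled ones of smallest p per direction without overlap, and leading members of lists; 2 genes are not reported here. The test was run on simulated data. Whole reads were not recovered from FPKM, so absolute depth is unknown; relative depth came from genes under 0.15 FPKM. P-values measure the spread between libraries. Alternatives covered scaling, pseudocount, filter, libraries used, lane, replicate block, weights, variance settings and leaving out libraries. Plots used matplotlib 3.10.9 in Python 3.11.15.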

Additional observations from a re-analysis of the deposited data

Results flagged for a closer look

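The diet effect on Aox1 differed between genotypes by -0.98 on the log2 scale in the interaction test. Aox1 entered that test through TRACK alone and was at most 0.194 scaled FPKM in wild type, where a decrease is not detectable. The interaction of Aox1 was not called with lane as a covariate (limma adjusted p = 0.592) or with a pseudocount of 0.1 (limma adjusted p = 0.0784). The other 15 flags mark 1 library whose gap to the nearest of its group of 4 exceeded Dixon's critical share of the group's range, in 146 groups looked at (73 genes in TRACK-VAD and in TRACK); chance flags about 1 in 20. TRACK-VAD 2 was high for Cd86 (4.11 scaled FPKM), Nat14 (2.71), Cd74 (786), H2-Aa (417), Cx3cr1 (6.44) and Spp1 (7860). TRACK-VAD 3 was high for Cyp26b1 (1.52), TRACK-VAD 4 was high for Loxl2 (2.62), and TRACK-VAD 1 was low for Palld (8.39). TRACK 1 was low for Cyp2s1 (27.6) and high for Bco1 (0.908) and Hbb-bs (333). TRACK 2 was high for Slc16a3 (32.4), and TRACK 3 was high for Npas2 (3.94) and S100g (1760). No explanation was tested.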

How the results depend on the processing

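The 19 calls were 10 with a pseudocount of 0.1, 3 with the TRACK and TRACK-VAD libraries alone, 29 with library weights, and 55 with lane as a covariate, which equals leaving out TRACK-VAD 4; without 1 library they ran from 9 to 55. The 11 with a log2 difference of at least 1 in size were 7 with a pseudocount of 0.1 and 7 with no filter. They were 2 with those 8 libraries, 18 with lane as a covariate, and 6 to 18 without 1 library. Called genes on the lists, 3 in all, were 5 without scaling and with weights, 1 with 8 libraries, 10 with lane, 6 without TRACK-VAD 1 and 2, and 2 to 10 without 1 library. The 1 interaction call became 4 without scaling, 3 with weights or without TRACK-VAD 1 and 2, 0 with a pseudocount of 0.1, a filter of 5 FPKM or lane as a covariate, and 0 to 7 without 1 library. Leaving out TRACK-VAD 1 and 2 together was chosen after seeing the data; it turned Spp1 to -0.34, Lcn2 to -0.60, Havcr1 to -0.15, Socs2 to -0.15 and Hif1a to 0.075, and weights turned Lcn2 to -0.16, none of them called. The cause of these shifts was not tested, save that fewer libraries or another spread estimate is used by construction. Without scaling the median gene shifts to 0.04.

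With the replicate number as a block, 7 genes were called, 5 of them with a log2 difference of at least 1 in size. Of the 7, 2 were on the lists, and 0 genes were called for the interaction. Same-numbered TRACK-VAD and TRACK libraries correlated at 0.382, -0.143, 0.027 and 0.202 in their deviations from the group means. So few values cannot decide whether the numbers pair the samples, and the main fit treats the libraries as unpaired.

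Absolute depth is unknown and genes near 1 FPKM, such as Aox1, Plxdc1 and Susd5, are measured with few reads; their log2 values depend on the pseudocount.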
